A study of Mus musculus with 18 samples.

Results

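The circadian clock genes described here were 10 mouse genes of the core transcription loop, namely Clock, Arntl, Per1, Per2, Per3, Cry1, Cry2, Nr1d1, Nr1d2 and Dbp. They were taken by gene symbol from 3 tables of read counts that together list 11738 gene symbols. The RNA was polyadenylated RNA of the whole hippocampus, a forebrain region needed for memory, of C57BL/6 mice. The first group, miR132/212 cKO, carries floxed miR-132/212 alleles and a Cre recombinase under the CaMKII promoter, which is active in excitatory forebrain neurons, so glia and most inhibitory neurons should keep the microRNAs. In tTA::miR132 and tTA::miR212 mice miR-132 or miR-212 is expressed from a transgene under control of a tetracycline transactivator, and no source used here names the promoter of that transactivator. Each of the 3 groups was set against nontransgenic controls of its own, which lack the recombinase or the transactivator too, so effects of these drivers and of the microRNAs cannot be told apart. Per the series design text, cDNA of 6 animals was pooled into 3 replicates in each group. No source used here gives the age of the mice or the hour at which they were killed. For genes whose RNA cycles over the day, a difference in that hour between groups cannot be told apart from a difference in genotype.

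Clock and Arntl (the BMAL1 protein) are transcription factors that bind DNA as a pair at E-box elements and switch on the Per and Cry genes, Nr1d1, Nr1d2 and Dbp. The period and cryptochrome proteins gather, enter the nucleus and repress the Clock and Arntl pair, which closes a feedback loop of about a day. Nr1d1 and Nr1d2 encode the nuclear receptors REV-ERB alpha and beta, which repress Arntl and Clock, and Dbp encodes an output factor that acts at D-box elements. In the suprachiasmatic nucleus, the master clock of the brain, miR-132 is induced by light through CREB, and it is known there as a brake on resetting of the clock. The hippocampus has a clock of its own, and in it Per1 is also induced by neuronal activity through CREB.

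The mature forms of both microRNAs, taken from RefSeq (mouse build GRCm38.p6), are shown because the seed decides which messages they can pair with. Both lie on the plus strand of chromosome 11, miR-132-3p at chr11:75173723-75173744 and miR-212-3p at chr11:75173443-75173464. The seed, bases 2 to 8, is in capitals.
mmu-miR-132-3p: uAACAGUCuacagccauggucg
mmu-miR-212-3p: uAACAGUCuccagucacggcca
Both are 22 bases long and have the same seed, and they are identical at 17 of the 22 positions. The complement of the seed, GACTGTT, was searched on the message strand in the longest annotated 3′UTR of each gene (GENCODE on the mm9 genome). It was found in 1 of the 10 clock genes, Clock, and the other 9 had no such letters in that window. Over all genes the letters were found in 10.0% of 19915 longest 3′UTRs and in 17.3% of those over 1000 bases. The Clock 3′UTR is 5732 bases long in the transcript ENSMUST00000031148, and the match starts at its position 4518, at chr5:76641200-76641206 on the minus strand of mm9. The site is given with its neighbouring bases and with the match in capitals, because it is the only one among the clock genes.
Clock: ctttttttccatgtGACTGTTttgc
The match is not followed by an A, and the RefSeq entry for Clock in the cKO and tTA::miR132 tables ends at about this place, with its lowest coordinate at 76641201. Among genes reported as miR-132 targets and tied to the output of the clock, the chromatin regulator Kdm5a and the translation and decay regulators Btg2 and Paip2 hold the letters, while the acetyltransferase Ep300 has none. A match is a run of letters and no evidence of binding.

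In the promoter windows of RefSeq, which span 250 bases before to 50 after a start, 13 promoters of 9 of the clock genes were found, and Per2 was not matched. Both strands were searched for 4 motifs. The E-box CACGTG is the element of the Clock and Arntl pair. It was in 2 of the 13 promoters, of Per1 and Cry1, and in 7.15% of all 32851 promoters. The letters AGGTCA, bound by REV-ERB proteins, were in 4 of the 13, of Arntl, Clock, Nr1d2 and Per1, and in 16.3% of all. The D-box TTANGTAA was in 1 of the 13, of Per3, and in 2.32% of all. The cAMP response element TGACGTCA was in no clock gene promoter and in 1.79% of all. Only exact letters were counted. The near match TGACGTCG in the Per1 promoter at chr11:69099902-69100201 was therefore not. Of the 2 Per1 promoters found, the one at chr11:69098699-69098998 (GRCm38.p6, plus strand) holds an E-box and an AGGTCA in reverse (TGACCT), both in capitals. The other holds none of the 4 motifs. The first is shown because Per1 is the clock gene whose level varied most in the tTA::miR212 libraries.
Per1 promoter: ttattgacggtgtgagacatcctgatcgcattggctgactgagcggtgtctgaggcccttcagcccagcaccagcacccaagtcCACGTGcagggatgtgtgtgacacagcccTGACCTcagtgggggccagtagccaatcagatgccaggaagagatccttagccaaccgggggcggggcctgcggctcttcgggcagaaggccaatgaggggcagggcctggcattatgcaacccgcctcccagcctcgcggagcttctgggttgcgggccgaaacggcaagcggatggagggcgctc

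The tables hold 14 libraries, 2 against 2 for cKO, 2 against 2 for tTA::miR132 and 3 against 3 for tTA::miR212. The cKO and tTA::miR132 tables each list 9 clock genes, without Dbp, which is not analysed here for them. The tTA::miR212 table lists 6, namely Clock, Per1, Cry2, Nr1d1, Nr1d2 and Dbp. Libraries held 8190899 to 14772907 counts in the cKO and tTA::miR132 tables and, with 1 transcript per gene, 1299376 to 1544926 counts in that of tTA::miR212. Library 1 of cKO stood apart: 1047 of its genes were at 0 counts, against 73 to 120 in the other 3 libraries, and its correlation with them across genes was 0.68 to 0.70 on the log scale, against 0.91 to 0.92 among those 3. In the tTA::miR132 table control library 2 also stood apart, with 485 genes at 0 counts, against 92 to 262 in the others. Its correlation with the others was 0.75 to 0.80, against 0.86 to 0.92 among those. Genes are not independent replicates, and these correlations share the tables' filter. Each result of the cKO comparison is therefore given for both libraries. For some clock genes the log2 fold change is also given without library 1 or library 2. The 6 markers of excitatory neurons were listed in every table and at 0 in no library. Of 8 markers of the suprachiasmatic nucleus and hypothalamus, 2, 1 and 0 were listed in the cKO, tTA::miR132 and tTA::miR212 tables.

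Levels of different genes were compared as counts scaled to a library total of 1000000 (CPM), divided by the length in kilobases of the longest annotated coding transcript. The counts were of 1 RefSeq entry per gene, whose length can differ from this. For Clock that entry ends before the longest 3′UTR does, so the order of genes at close levels depends on the length used. In the control libraries of the cKO table, Nr1d1 was highest at 83.7 ± 10.6 CPM per kb, then Cry2 at 35.3 ± 0.761 and Nr1d2 at 30.5 ± 4.09 (SD, n = 2). Arntl at 15.2 ± 3.73 and Per1 at 10.0 ± 1.65 CPM per kb followed, then Cry1 at 9.15 ± 1.43, Per2 at 7.49 ± 0.980, Clock at 6.90 ± 1.13 and Per3 at 4.87 ± 2.21. Neighbours in this order overlapped in their ranges of mean ± SD, other than Nr1d1 with Cry2 and Nr1d2 with Arntl. The control libraries of the tTA::miR132 table had the same leading 4 genes, with Nr1d1 at 82.3 ± 15.1, Cry2 at 36.0 ± 0.126, Nr1d2 at 33.8 ± 20.9 and Arntl at 16.5 ± 1.13 CPM per kb (SD, n = 2). Below them came Per2 at 13.3 ± 6.21, Per1 at 11.9 ± 4.42, Per3 at 7.58 ± 1.30 and Cry1 at 5.07 ± 4.397 CPM per kb. Clock was the lowest of the 9 there, at 3.43 ± 1.53 CPM per kb.

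The cKO libraries were compared with their controls to ask whether loss of miR-132 and miR-212 shifts the clock genes. None of the 9 clock genes passed edgeR's quasi-likelihood test with Benjamini-Hochberg adjustment over all genes (adjusted p = 0.999 for each), and none had an unadjusted p under 0.05. Per1 and Per2 were above the controls in both cKO libraries, and Clock, Cry1, Cry2 and Nr1d2 were below the controls in both. Of all 10487 genes tested, 14.3% lay wholly above and 18.0% wholly below, against 2 and 4 of the 9 clock genes. Log2 fold changes were above 0 for 4 of the 9 clock genes and for 47.9% of all genes. Over all genes 0 were called (0%), 88 had an unadjusted p under 0.05 (0.839%), and DESeq2 called 5, none of them a clock gene. The biological coefficient of variation was 74.2% in this table. In bulk hippocampus, fewer cells of a type and less RNA per cell cannot be told apart.

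**Figure D1:**
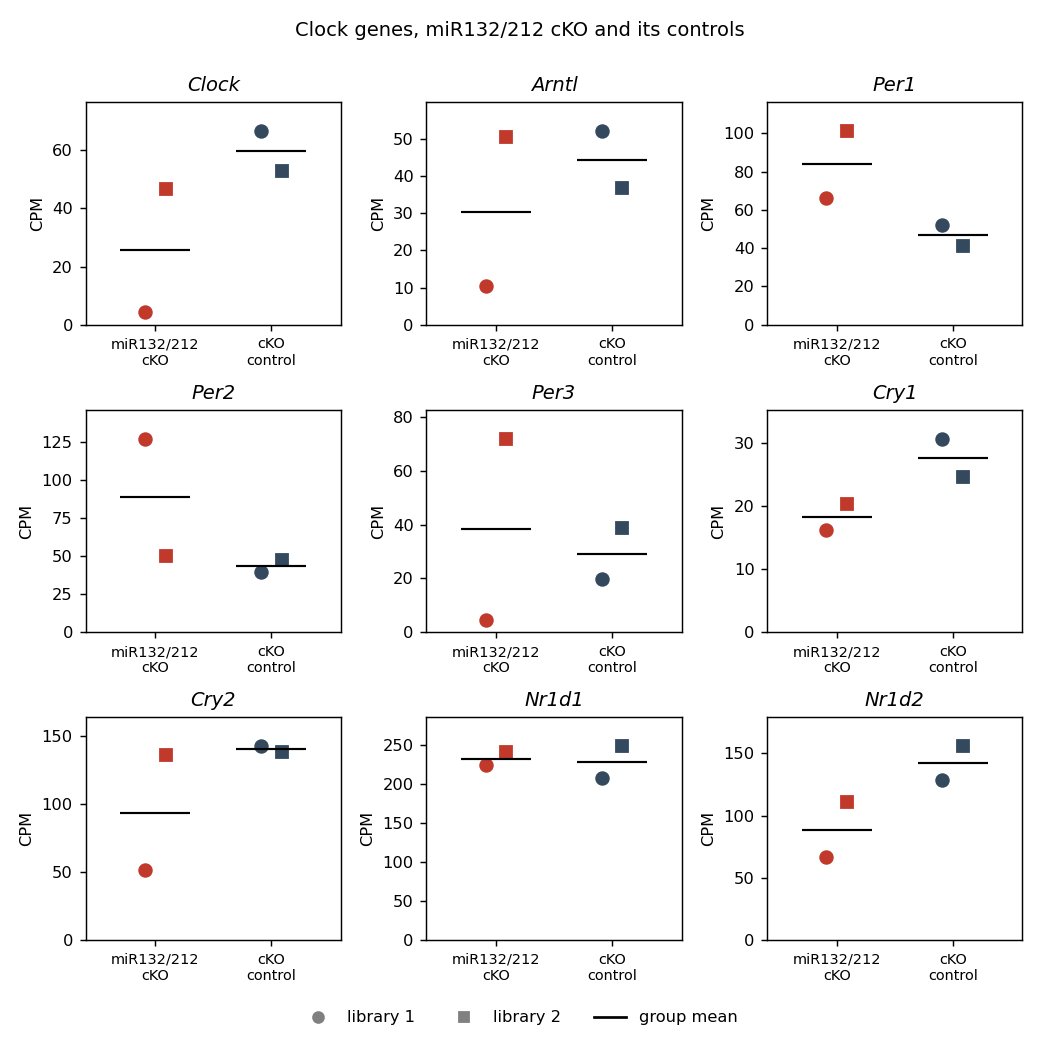
Level of 9 clock genes in CPM (vertical axes, linear and from 0, a scale per gene) in each miR132/212 cKO and control library; each point is a library and each line a group mean. Clock, Arntl and Per3 sit far lower in cKO library 1, at 4.25, 10.5 and 4.68 CPM, than in cKO library 2, while Nr1d1 is at 207 to 248 CPM in all 4 libraries.

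Of the activators, Clock had 4.25 and 46.8 CPM in the cKO libraries, against 66.6 and 52.7 CPM in the controls. Both cKO libraries were below both controls, but library 1 with 40 counts was far below library 2 with 454. The log2 fold change was -1.23 with an SE of 1.04. Arntl had 10.5 and 50.4 CPM in cKO, against 52.2 and 36.7 CPM in controls, so the groups overlapped and only cKO library 1 was low (log2 fold change -0.55, SE 0.83).

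Of the repressors, Per1 had 66.3 and 101 CPM in the cKO libraries, against 52.3 and 41.4 CPM in the controls. The groups did not overlap, and the log2 fold change of 0.86 (SE 0.43, edgeR unadjusted p = 0.0955) ranked 370 by p among the genes tested. Per2 had 128 and 50.6 CPM in cKO, against 39.6 and 47.7 CPM in controls, also without overlap, but library 2 exceeded the higher control by little (log2 fold change 1.07, SE 0.57, unadjusted p = 0.109 by edgeR). Per3 was split within the cKO group at 4.68 and 71.8 CPM, which lay on either side of the controls at 19.8 and 38.6 CPM. Cry1, the lowest of the cryptochromes, had 16.2 and 20.3 CPM in cKO, against 30.6 and 24.5 CPM in controls. Cry2 had 51.2 and 136 CPM in cKO, against 142 and 138 CPM in controls, so that its cKO library 2 was nearly level with the controls. The log2 fold changes of both cryptochromes were -0.58, with an SE of 0.78 for Cry1 and 0.48 for Cry2.

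Among the REV-ERB genes, Nr1d1 had 224 and 241 CPM in cKO, against 207 and 248 CPM in controls, a log2 fold change of 0.05 (SE 0.24). Its cKO values lay between those of the controls. Nr1d2 had 66.9 and 111 CPM in cKO, against 129 and 156 CPM in controls, with both cKO libraries lower (log2 fold change -0.67, SE 0.35, unadjusted p = 0.111 by edgeR). The median log2 fold change of the 9 clock genes was -0.55, against -0.03 for all genes tested.

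Clock genes disagreed more between the cKO libraries than between the controls. The ratio of the higher to the lower CPM, with 0.5 CPM added to each, had a median over the 9 clock genes of 2.51 in cKO and 1.24 in controls, and over all genes of 1.84 in cKO and 1.28 in controls. This ratio was 13.97 for Per3 in cKO, more than in 87.9% of all genes, and 9.95 for Clock, more than in 85.1%. It was 1.07 for Nr1d1 in cKO, and only 7.60% of genes had less. A fit without either cKO library leaves 1 alone and assumes that it varies as the controls do, so only log2 fold changes are given. Without cKO library 2 they were -3.74 for Clock, -2.57 for Per3 and -2.01 for Arntl. In the same fit they were -1.39 for Cry2, -1.02 for Nr1d2 and 1.61 for Per2. Without cKO library 1 they were -0.36 for Clock, 0.17 for Arntl, -0.06 for Cry2, -0.37 for Nr1d2 and 0.20 for Per2. Per1 was then at 1.10 and Per3 at 1.29. The log2 fold change of Per3 was thus of opposite sign with either cKO library alone. Choroid plexus marker counts also differed by library: all 10 markers were listed, 6 were at 0 in some library, and their summed level was 963 and 2524 CPM in cKO, against 5492 and 6386 CPM in controls. Summed excitatory neuron markers (6 of 6 listed, none at 0) were at 5575 and 4240 CPM in cKO, against 3504 and 4020 CPM in controls. Endothelial markers (6 of 6 listed, 2 at 0 in some library) summed to 136 and 146 CPM in cKO, against 101 and 74.8 CPM in controls, and thalamic markers (4 of 6 listed) to 62.2 and 48.9 CPM, against 116 and 91.7 CPM in controls. The sums of the other marker lists overlapped between cKO and controls, and of all genes tested 14.3% lay wholly above and 18.0% wholly below. The part of any cell type in the clock gene values was not tested.

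No other gene tied to the clock was called in cKO. Of 13 other transcription regulators of the clock, 9 were tested, with a median log2 fold change of -0.44. Bhlhe40, which encodes the repressor DEC1, had 105 and 189 CPM in cKO, against 220 and 202 CPM in controls. Of 12 kinases and ubiquitin ligases that modify clock proteins, 11 were tested, with a median log2 fold change of -0.05. Csnk1e, casein kinase 1 epsilon that marks period proteins for decay, had 52.8 and 87.0 CPM in cKO, against 111 and 134 CPM in controls (log2 fold change -0.80, SE 0.37). Csnk2a2, a catalytic subunit of casein kinase 2, had 140 and 46.9 CPM in cKO, against 33.3 and 39.3 CPM in controls (log2 fold change 1.41, SE 0.62). Fos, which is induced by neuronal activity, had 9.99 and 60.2 CPM in cKO, against 93.1 and 76.9 CPM in controls (log2 fold change -1.28, SE 0.82). The 4 reported miR-132 targets tested were all above 0 on the log2 scale, by 0.09 to 0.23, and all 4 overlapped the controls. Among genes induced by CREB or activity 13 were tested, with a median log2 fold change of 0.14, and among genes induced by glucocorticoids 7, with a median of -0.13.

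The tTA::miR132 libraries were compared with their controls to ask about gain of miR-132. None of the 9 clock genes passed the edgeR test (adjusted p of 0.997 to 0.999). Clock was above the controls in both libraries and Cry2 below them in both, while the other 7 overlapped. Of 10734 genes tested, 18.8% lay wholly above and 14.3% wholly below the controls, against 1 and 1 of the 9 clock genes. Log2 fold changes were above 0 for 4 of the 9 clock genes and for 49.9% of all genes. Over all genes 0 were called (0%), 303 had an unadjusted p under 0.05 (2.82%), and DESeq2 called 39, none of them a clock gene. The biological coefficient of variation was 60.7%.

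**Figure D2:**
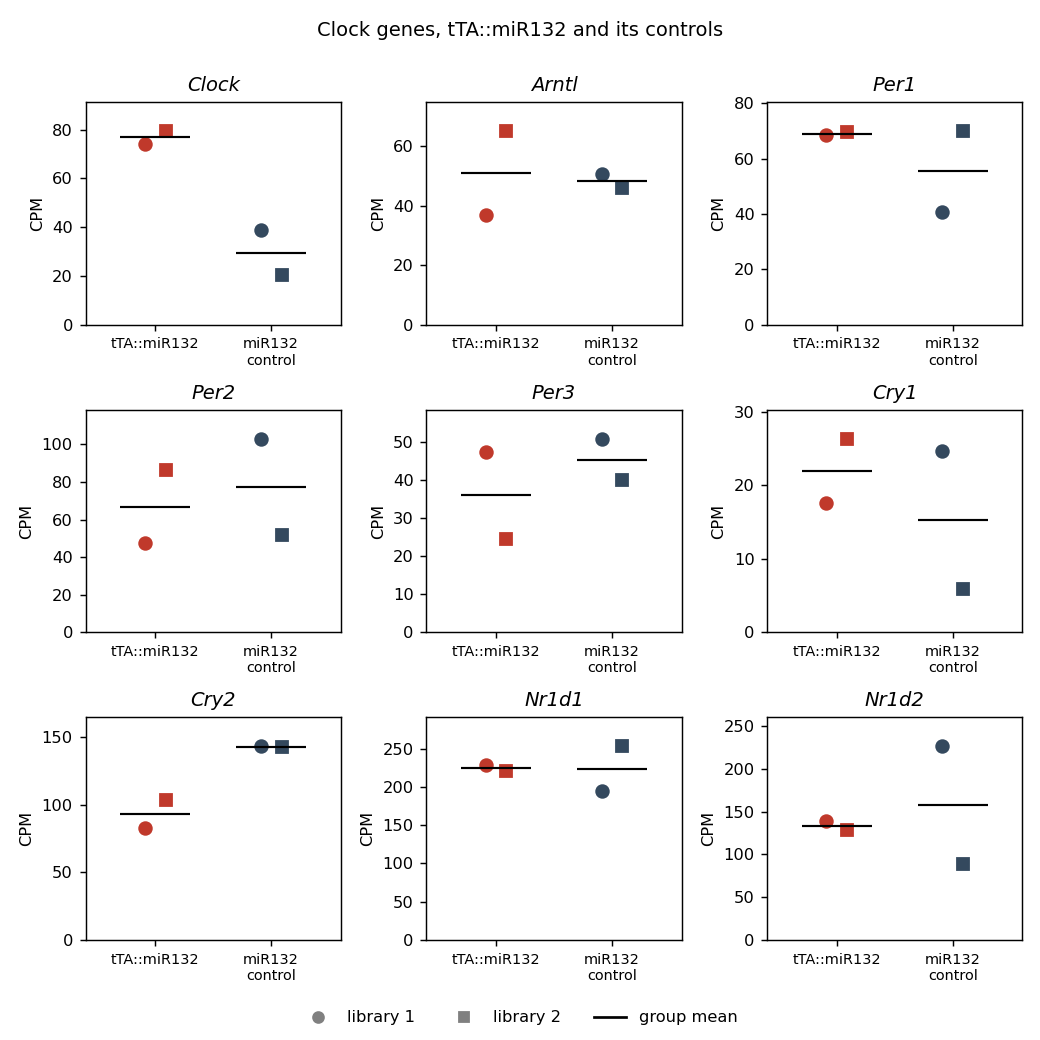
Level of 9 clock genes in CPM (vertical axes, linear and from 0, a scale per gene) in each tTA::miR132 and control library; each point is a library and each line a group mean. Clock is at 74.2 and 79.4 CPM in tTA::miR132 and at 39.0 and 20.2 CPM in controls, and Cry2 at 83.1 and 104 CPM against 143 CPM in both controls.

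Clock had 74.2 and 79.4 CPM in the tTA::miR132 libraries, against 39.0 and 20.2 CPM in the controls. Both tTA::miR132 libraries were high and close to each other, and the controls were lower and further apart. The lowest value was that of control library 2, which stood apart across genes, and without it the log2 fold change of Clock was 0.97. With all libraries the log2 fold change of Clock was 1.34 (SE 0.50). Its unadjusted p of 0.0199 by edgeR ranked 75 in the table, and its adjusted p was 0.997, or 0.130 by DESeq2. Over all alternatives run, the adjusted p of Clock lay between 0.0723 and 1.00, and its log2 fold change with 1 library left out lay between 0.97 and 1.86. Arntl, the partner of Clock, had 36.8 and 65.2 CPM in tTA::miR132, against 50.7 and 46.0 CPM in controls (log2 fold change 0.03, SE 0.49), with the groups overlapping.

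Per1 had 68.4 and 69.4 CPM in tTA::miR132, against 40.8 and 70.0 CPM in controls, so only control library 1 was low (log2 fold change 0.27, SE 0.45). Per2 had 47.3 and 86.5 CPM in tTA::miR132, against 103 and 51.8 CPM in controls, and Per3 had 47.6 and 24.6 CPM, against 51.0 and 40.0 CPM in controls. Both period genes overlapped between groups, with log2 fold changes of -0.25 (SE 0.47) for Per2 and -0.37 (SE 0.56) for Per3. Cry1 had 17.5 and 26.3 CPM in tTA::miR132, against 24.6 and 5.90 CPM in controls. Cry2 had 83.1 and 104 CPM in tTA::miR132, against 143 and 143 CPM in controls. Cry2 was thus lower in both tTA::miR132 libraries, with a log2 fold change of -0.66 (SE 0.31, edgeR unadjusted p = 0.0560).

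Nr1d1 had 228 and 220 CPM in tTA::miR132, against 195 and 253 CPM in controls, a log2 fold change of -0.04 (SE 0.24). Nr1d2 had 139 and 129 CPM in tTA::miR132, against 226 and 88.7 CPM in controls, so its controls enclosed both tTA::miR132 values (log2 fold change -0.27, SE 0.39). Here the spread was wider in the controls: the ratio of the higher to the lower CPM had a median over the clock genes of 1.24 in tTA::miR132 and 1.71 in controls, and over all genes of 1.32 in tTA::miR132 and 1.57 in controls. It was largest for Cry1, at 3.93 in controls. The median log2 fold change of the 9 clock genes was -0.04, against 0.00 (-0.0024) for all genes.

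None of the other clock-related genes was called in tTA::miR132. The 8 other transcription regulators tested had a median log2 fold change of -0.43. Nfil3, a repressor that competes with Dbp at D-boxes, had 35.5 and 24.3 CPM in tTA::miR132, against 14.8 and 2.53 CPM in controls (log2 fold change 1.75, SE 0.99). Tef, an activator of the Dbp family, had 524 and 448 CPM in tTA::miR132, against 601 and 562 CPM in controls (log2 fold change -0.30, SE 0.17). The 11 kinases and ligases had a median of -0.20 on the log2 scale. Csnk1d, casein kinase 1 delta, had 138 and 75.0 CPM in tTA::miR132, against 70.0 and 69.0 CPM in controls (log2 fold change 0.58, SE 0.40). Among the 4 reported targets tested, Paip2 had 326 and 323 CPM in tTA::miR132, against 329 and 427 CPM in controls, and Btg2 had 23.2 and 25.3 CPM, against 38.2 and 28.3 CPM in controls. Both were lower in each tTA::miR132 library, Ep300 was higher in each, and Kdm5a overlapped. The activity-induced gene Fos had 64.2 and 49.7 CPM in tTA::miR132, against 26.2 and 32.8 CPM in controls, without passing the test (log2 fold change 0.91, SE 0.52). The 12 genes induced by CREB or activity had a median log2 fold change of -0.28, and the 7 induced by glucocorticoids one of -0.19. Zbtb16 of the glucocorticoid list had 37.5 and 61.4 CPM in tTA::miR132, against 67.8 and 141 CPM in controls (log2 fold change -1.13, SE 0.46, edgeR unadjusted p = 0.0319, adjusted p = 0.997). Of all marker lists, the sums of 3 did not overlap between groups, and those of the others did. Of all genes tested, 18.8% lay wholly above and 14.3% wholly below the controls. Excitatory neuron markers (6 of 6 listed) were at 3690 and 4099 CPM in tTA::miR132, against 4162 and 4389 CPM in controls. Oligodendrocyte markers (5 of 6 listed) were at 4322 and 4184 CPM in tTA::miR132, against 3462 and 3630 CPM in controls, and ependymal markers (4 of 5 listed) at 66.1 and 48.8 CPM, against 40.0 and 41.3 CPM in controls. Choroid plexus markers (10 of 10 listed) were at 5010 and 3678 CPM in tTA::miR132, against 6520 and 4965 CPM in controls. Their part in the clock gene values was not tested.

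The tTA::miR212 libraries, 3 a group, gave the smallest SEs for the clock genes listed in every table. The biological coefficient of variation was 8.58%. It is over 4618 genes with at most 1 at 0 counts in a library, a smaller set of genes than in the other tables. None of the 6 clock genes passed the edgeR test (adjusted p of 0.900 to 0.992), and none had an unadjusted p under 0.05. All 6 overlapped their controls, while of all 4618 genes 6.47% lay wholly above and 4.96% wholly below. Over all genes 0 were called (0%) by edgeR and 0 by DESeq2, and 261 (5.65%) had an unadjusted p under 0.05 by edgeR. Log2 fold changes were above 0 for 2 of the 6 clock genes and for 51.0% of all genes. The median log2 fold change of the 6 clock genes was -0.15, against 0.00 (0.0027) for all genes.

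**Figure D3:**
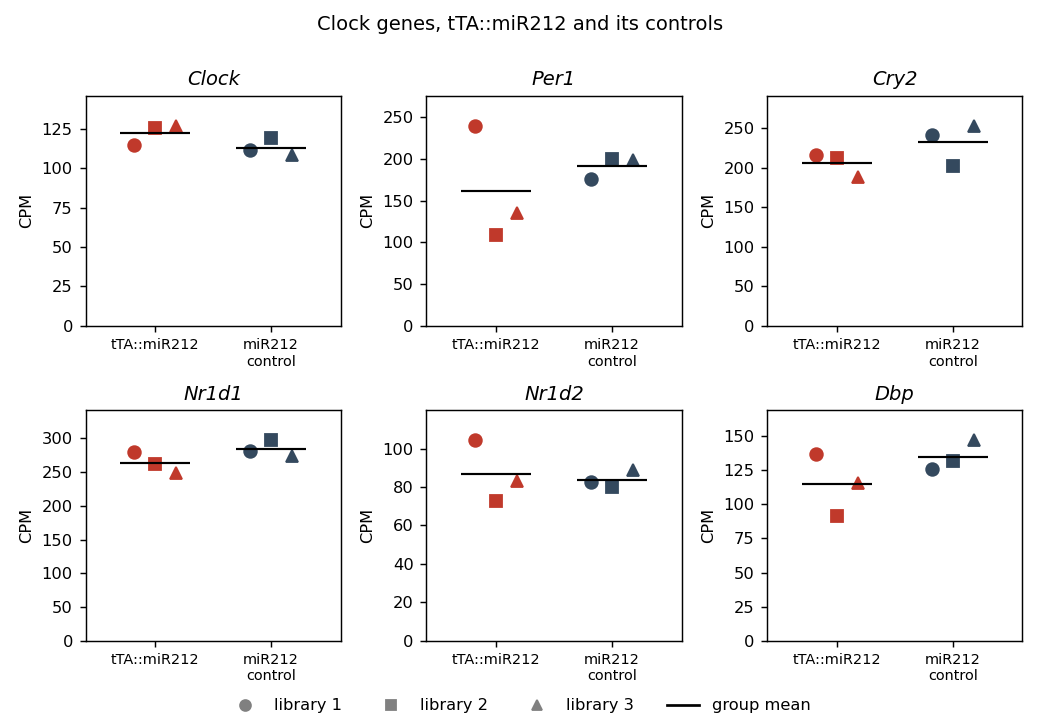
Level of 6 clock genes in CPM (vertical axes, linear and from 0, a scale per gene) in each tTA::miR212 and control library; each point is a library and each line a group mean. Per1 spreads over 240, 109 and 135 CPM in tTA::miR212 libraries 1 to 3 and over 176 to 199 CPM in controls.

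Clock had 115, 126 and 127 CPM in tTA::miR212, against 112, 119 and 108 CPM in controls. The ranges overlapped by a little, and the log2 fold change was 0.11 (SE 0.11). Cry2 had 215, 212 and 189 CPM in tTA::miR212, against 241, 202 and 253 CPM in controls (log2 fold change -0.19, SE 0.10, edgeR unadjusted p = 0.0692). Control library 2 lay below 2 of the 3 tTA::miR212 libraries for Cry2.

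Nr1d1 had 281, 262 and 248 CPM in tTA::miR212, against 282, 297 and 274 CPM in controls (log2 fold change -0.12, SE 0.08). Nr1d2 had 104, 72.5 and 82.9 CPM in tTA::miR212, against 82.4, 80.0 and 88.6 CPM in controls (log2 fold change 0.03, SE 0.14). For Nr1d2 library 1 was above and library 2 below every control. Dbp, the output factor, had 137, 91.3 and 116 CPM in tTA::miR212, against 126, 131.6 and 147 CPM in controls. Its libraries 2 and 3 were below every control and library 1 was among them (log2 fold change -0.25, SE 0.14, edgeR unadjusted p = 0.0872). Without tTA::miR212 library 1 the log2 fold change of Dbp was -0.39 (edgeR unadjusted p = 0.0103, adjusted p = 0.284), and without library 2 it was -0.10.

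Per1 had 240, 109 and 135 CPM in tTA::miR212, against 176, 199 and 198 CPM in controls. Library 1 was above every control and libraries 2 and 3 were below every control, so the group mean (161 ± 69.1 CPM, SD, n = 3) lay near that of controls (191 ± 13.3 CPM, SD, n = 3). Its log2 fold change of -0.27 (SE 0.33) had an edgeR adjusted p of 0.962. The ratio of the highest to the lowest tTA::miR212 library was 2.19, and 98.9% of genes had less. Without tTA::miR212 library 1, Per1 was called lower, with a log2 fold change of -0.66 (SE 0.12, edgeR adjusted p = 0.0218), as 1 of 18 genes called. Without library 2 it was -0.04 and without library 3 it was -0.17. The 4 transcripts listed for Per1 share reads and gave log2 fold changes of -0.23 to -0.28.

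Most genes induced by neuronal activity lay on the same side of the controls as Per1 in each tTA::miR212 library, without being called. Fos had 166, 28.5 and 17.4 CPM in tTA::miR212, against 68.4, 74.7 and 71.2 CPM in controls. Arc, which encodes a synaptic protein made upon activity, had 802, 245 and 185 CPM in tTA::miR212, against 515, 512 and 426 CPM in controls. Egr1 had 718, 203 and 319 CPM in tTA::miR212, against 447, 526 and 476 CPM in controls. Each of these 3 genes, like Per1, was highest of all 6 libraries in tTA::miR212 library 1 and below every control in libraries 2 and 3. Fos and Arc were chosen after their values were seen. Of 14 genes listed as induced by CREB or activity, 9 were tested and none called, with a median log2 fold change of -0.15, and 8 of the 9, all but Nr4a3, had this pattern, as did 1.93% of all 4618 genes, and the pattern was chosen after its values were seen. Their summed level was 2718, 855 and 875 CPM in tTA::miR212, against 1643, 1774 and 1564 CPM in controls. The part of activity in the Per1 values was not tested. Choroid plexus content, by 3 listed markers of 10, none at 0, was 1420, 219 and 1296 CPM in tTA::miR212, against 1412, 1227 and 534 CPM in controls. By this sum library 1 was nearly level with control library 1, and library 2 was lowest of all 6, as for Per1. Library 3 lay among the controls, of which control library 3 was low in this sum but not in Per1. The part of choroid plexus content in the Per1 values was not tested. The 3 microglia markers listed of 6 summed to 366, 311 and 319 CPM in tTA::miR212, against 282, 299 and 307 CPM in controls. No other summed marker list was apart between these groups, and 6.47% of all 4618 genes lay wholly above the controls.

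**Figure D4:**
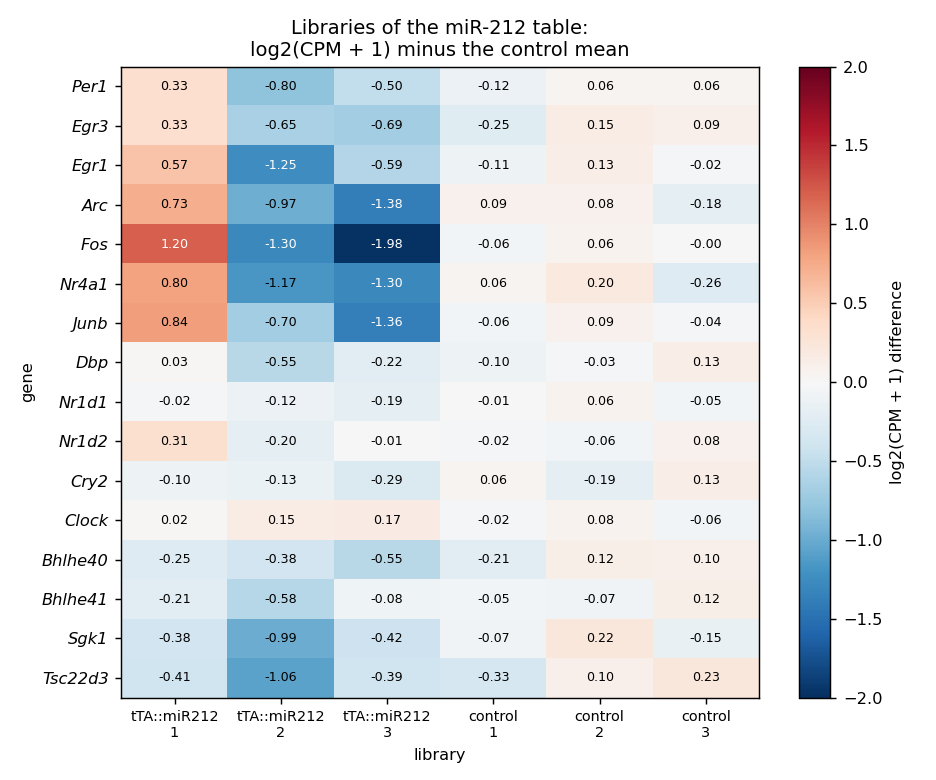
Difference of each gene from its control mean, on the log2(CPM + 1) scale (colour and printed value), for the 6 clock genes, 6 genes induced by activity (Egr3 to Junb), both DEC genes and 2 glucocorticoid-induced genes (rows) in the 3 tTA::miR212 and 3 control libraries (columns). Per1 and the activity genes shown are above the control mean in tTA::miR212 library 1 and below it in libraries 2 and 3, and Clock, Cry2 and Nr1d1 vary less. Rows other than clock genes are a selection. Egr3 is the gene most like Per1 over these libraries, and Nr4a3, an activity gene without this pattern, is not shown. Of the 5 glucocorticoid-induced genes tested, 2 had a log2 fold change above 0.

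The genes with the pattern most like that of Per1 over the 6 libraries were Egr3, Mef2c and Cux2, all encoding transcription factors. Likeness was the root mean square difference of log2(CPM + 1) centred on each gene's mean, and it was 0.1196 for Egr3, 0.131 for Mef2c and 0.139 for Cux2, against a median of 0.403 over all genes. Egr3 had 108, 54.4 and 52.8 CPM in tTA::miR212, against 72.1, 95.4 and 91.7 CPM in controls. Mef2c had 218, 84.1 and 124 CPM in tTA::miR212, against 148, 148 and 187 CPM in controls. The genes most like Dbp were Extl1 at 0.0561, Pmepa1 at 0.0635 and Rims4 at 0.0726, against a median of 0.257 over all genes. Rims4, a presynaptic active-zone gene, had 211, 128 and 167 CPM in tTA::miR212, against 194, 195 and 239 CPM in controls. For Dbp the 5 transcripts listed gave log2 fold changes of -0.25 to -0.40, so all were on the same side and none passed the test.

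Of the 5 other clock regulators tested in tTA::miR212, with a median log2 fold change of -0.08, 2 lay wholly below the controls. These were both DEC genes, each by a small margin, and 4.96% of all 4618 genes lay wholly below too. Bhlhe40 (DEC1) had 143, 130 and 116 CPM in tTA::miR212, against 146, 185 and 182 CPM in controls. Its log2 fold change was -0.41 (SE 0.12), with an unadjusted p of 0.00262 and an adjusted p of 0.715 by edgeR. Bhlhe41 (DEC2) had 61.3, 47.3 and 66.9 CPM in tTA::miR212, against 68.4, 67.7 and 77.3 CPM in controls (log2 fold change -0.30, SE 0.17). The 10 kinases and ligases tested had a median of -0.05 on the log2 scale. Of the reported targets, Ep300 had 134, 117 and 151 CPM in tTA::miR212, against 122, 125 and 124 CPM in controls (log2 fold change 0.10, SE 0.11). Paip2 had 90.5, 104 and 93.6 CPM in tTA::miR212, against 97.1, 78.5 and 90.9 CPM in controls (log2 fold change 0.10, SE 0.12). Both overlapped their controls and neither was called. Of 8 genes induced by glucocorticoids, hormones that follow a daily rhythm, 5 were tested and none was called, with a median log2 fold change of -0.16. Sgk1, a kinase of that list, had 83.6, 54.4 and 81.6 CPM in tTA::miR212, against 104, 128 and 98.5 CPM in controls (log2 fold change -0.60, SE 0.16, edgeR unadjusted p = 0.00212, adjusted p = 0.715).

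**Figure D5:**
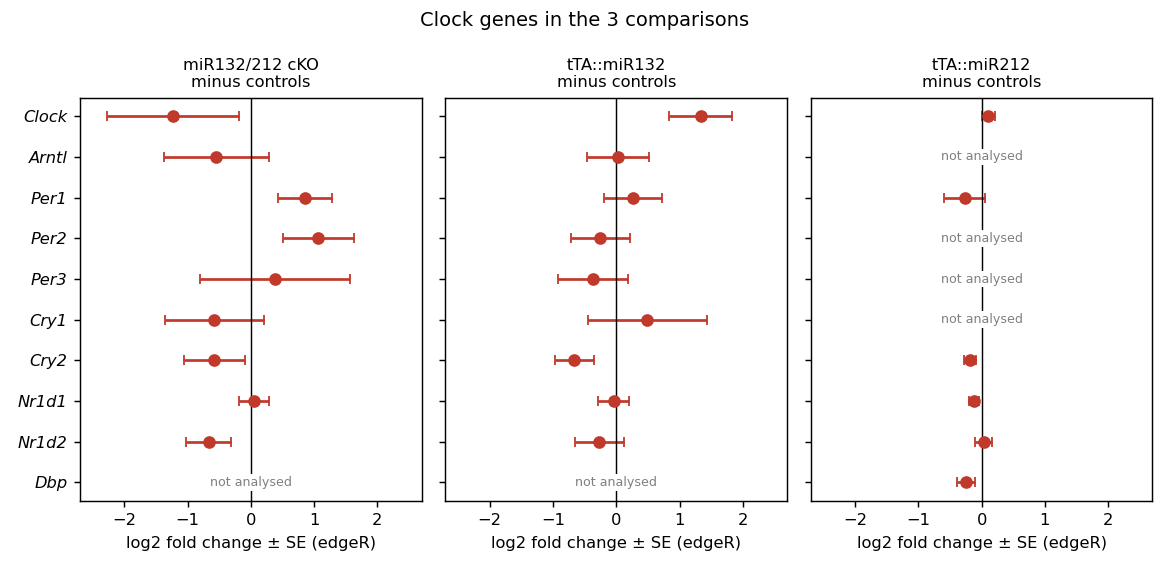
Log2 fold change of each clock gene (horizontal axis, points) with its SE (bars) for miR132/212 cKO, tTA::miR132 and tTA::miR212, each against its own controls, by edgeR. Clock is at -1.23 in cKO, 1.34 in tTA::miR132 and 0.11 in tTA::miR212, and no gene passes the adjusted threshold in any comparison.

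Side by side, Clock lay at -1.23 (SE 1.04) in cKO and at 1.34 (SE 0.50) in tTA::miR132 on the log2 scale, and at 0.11 (SE 0.11) in tTA::miR212. The cKO value rests on library 1, without which it was -0.36. These comparisons share no control libraries, and the difference between them was not tested because the tables were made separately. Cry2 was below 0 in each comparison, at -0.58 (SE 0.48), -0.66 (SE 0.31) and -0.19 (SE 0.10), and passed the test in none. Without cKO library 1 the first of these was -0.06. Nr1d1 was the most even, at 0.05 (SE 0.24), -0.04 (SE 0.24) and -0.12 (SE 0.08). Per1 was at 0.86 (SE 0.43), 0.27 (SE 0.45) and -0.27 (SE 0.33). No gene among the 9 or 6 clock genes was called in any of the 3 comparisons, with SEs of 0.24 to 1.19 on the log2 scale in the cKO and tTA::miR132 tables and of 0.08 to 0.33 in that of tTA::miR212. Differences within these errors were not detectable with so few libraries. Differences beyond them, such as that of Clock in tTA::miR132, were not called either, so the limit of detection was wider than the SE.

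The authors' deposited tables hold q-values of their own, which differ from these results. In cKO, 5 of the 9 clock genes had a deposited q under 0.05 in the authors' deposited table, and so did 54.3% of all genes in it. These were Per3 with q = 4.92e-16, Per1 with 2.71e-05, Nr1d2 with 0.000143, Cry1 with 0.0223 and Clock with 0.0269, in the authors' deposited table. In tTA::miR132, 6 of 9 had a q under 0.05 in the authors' deposited table, against 53.1% of all genes. The lowest were Clock with q = 4.73e-16, Nr1d2 with 2.48e-15 and Cry2 with 2.32e-13 in the authors' deposited table, and Arntl had 0.000325 and Per2 0.0414. Nr1d1 was among the 6 too, with q = 0.000169 in the authors' deposited table, although its levels of 228 and 220 CPM in tTA::miR132 lay between the controls at 195 and 253 CPM. In tTA::miR212 none of the 6 had one in the authors' deposited table, where 4 genes (0.0866%) did.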

How the data were processed

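The authors deposited raw read counts, whole numbers for each gene (cKO and tTA::miR132) or transcript (tTA::miR212). Per the series design text, reads were aligned to mm9 with Bowtie 0.12.7 and abundances, not used here, were made with Cufflinks 1.2. No source used here names the counting tool, the annotation or the gene filter. Another 14 columns, holding the authors' normalized values, were left aside. The authors' deposited q-values were only set beside the new tests.

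CPM were computed as counts over the total of the genes kept, scaled to 1000000. In the tTA::miR212 table each of 4618 symbols was represented by its transcript of highest mean count, a choice needed for 2555 symbols. Transcripts of a gene share reads, and for Clock a pair of them had identical counts. Each table was fitted on its own in R 4.3.3 with edgeR 4.0.16 (TMM, filterByExpr, robust quasi-likelihood test, Benjamini-Hochberg over all genes tested, threshold 0.05). All 9, 9 and 6 clock genes passed the filter. SE is the absolute log2 fold change over the square root of F. Alternatives were DESeq2 1.42.0, limma-voom of limma 3.58.1, other size factors, no filter, the library number as a block, and each library left out. The fit was also run on simulated counts, and the outcome of that run is not reported here. Genes named from the other lists were taken mostly from the up to 3 with the smallest p per list and comparison, and not all of these are given. The exceptions are Kdm5a in tTA::miR132, the genes of the seed search and those named as chosen after their values were seen. Also, 1 gene of these lists is not reported here.

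The labels list 18 samples in 6 groups of 3, and the tables hold 14 libraries, tied to groups by column name and to no single sample. The third library of 4 groups is not analysed here. Nothing beyond the pooling of animals says how separate the replicates are, and p-values measure the spread between these libraries. Reads were amplified and carry no molecular identifiers. Replicates differed by more than sampling noise, with a chi-square per degree of freedom of 1.39 or more. The clock genes and the gene lists were chosen with earlier results of these data known.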

Additional observations from a re-analysis of the deposited data

How the results depend on the processing

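Of 90 values of clock genes under alternatives in cKO, 79 kept their direction and side of the threshold, 5 came past it in the same direction and 6 turned direction, of which Per3 without cKO library 2 also came past it. Of 90 in tTA::miR132, 78 kept both and 12 turned, and of 78 in tTA::miR212, 76 kept both, 1 came past the threshold and 1 turned. Counts of all genes called, 0 by edgeR in each table, were 5 in cKO and 39 in tTA::miR132 with DESeq2, 1 in cKO and 3 in tTA::miR132 with limma-voom, and 1 in tTA::miR132 and 1 in tTA::miR212 with the library number as replicate block. Leaving out 1 library gave 1 to 4527 calls in cKO, the most without cKO library 2, 0 to 111 in tTA::miR132, the most without control library 1, and 0 to 18 in tTA::miR212, the most without tTA::miR212 library 1. Clock genes called then were 0 to 6 in cKO and 0 to 1 in tTA::miR212, where the 1 was Per1. Why calls changed was not tested, beyond that a lone library is assumed to vary like the others.

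With 1 library left out, log2 fold changes that turned were in cKO Nr1d1 (-0.077 to 0.19), Per3 (-2.57 to 1.29) and Arntl (-2.01 to 0.17). In tTA::miR132 they were Per2 (-0.73 to 0.30), Cry1 (-0.18 to 1.82), Per1 (-0.090 to 0.74), Nr1d1 (-0.24 to 0.19), Nr1d2 (-0.77 to 0.53), Per3 (-0.94 to 0.037) and Arntl (-0.42 to 0.38). In tTA::miR212 it was Nr1d2 (-0.12 to 0.15). Per3 in cKO was -0.41 with limma-voom and -0.55 with the replicate block, Arntl in tTA::miR132 was -0.12 with limma-voom and -0.023 with the block, and Nr1d1 in tTA::miR132 was 0.0027 with column totals in place of TMM. The cause was not tested. Libraries with the same number did not deviate together: the correlations were 0.018 and 0.0097 in the tables with 2 libraries a group and -0.076, 0.021 and -0.033 in tTA::miR212, so the numbers were not taken as pairs.

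With 2 libraries a group and a biological coefficient of variation of 74.2% and 60.7%, the cKO and tTA::miR132 tables limit what can be called. The fewest counts of a clock gene were 40, for Clock in cKO library 1.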

Other observations

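Ratios between clock genes of a library do not depend on its total. Per1 counts were 15.6 and 2.16 times those of Clock in the cKO libraries, against 0.785 and 0.785 times in their controls. In tTA::miR132 the same ratio was 0.922 and 0.874, against 1.05 and 3.46 in controls. In tTA::miR212 it was 2.09, 0.871 and 1.06, against 1.57, 1.67 and 1.83 in controls, so library 1 lay above every control and libraries 2 and 3 below. Of the other ratios computed, 5 in cKO and in tTA::miR132 and 2 in tTA::miR212, Nr1d1 over Nr1d2 was 3.35 and 2.18 in cKO, against 1.61 and 1.59 in controls, and Per1 over Nr1d1 was 0.296 and 0.421 in cKO, against 0.252 and 0.167 in controls. Per1 over Per2, Per2 over Arntl and Cry2 over Cry1 overlapped between cKO and controls, the first at 0.52 and 2.0 in cKO, against 1.32 and 0.867 in controls. In tTA::miR132, Cry2 over Cry1 was 4.74 and 3.93, against 5.82 and 24.2 in controls. The 24.2 rests on 49 Cry1 counts in control library 2, which stood apart across genes. Per1 over Nr1d1 was 0.299 and 0.315 in tTA::miR132, against 0.210 and 0.277 in controls. The other 3 overlapped there, Nr1d1 over Nr1d2 being 1.65 and 1.71 in tTA::miR132, against 0.860 and 2.85 in controls. In tTA::miR212 both others overlapped the controls. These ratios were chosen after earlier results of these data were known, are not divided by transcript length, and were not tested. How often ratios of other gene pairs separate the groups was not computed.

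Timeless, the mammalian relative of a fly clock gene, had 1.38 and 4.95 CPM in cKO, against 15.2 and 13.8 CPM in controls (log2 fold change -2.19, SE 1.95), and did not pass the test.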
